A study of Homo sapiens with 4 samples.

Results

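YAP1 and WWTR1 (the gene of TAZ), their DNA-binding partner TEAD1, the LATS1 and LATS2 kinases, the angiomotins AMOTL1 and AMOTL2, and the target genes CYR61, CTGF and ANKRD1 are 10 genes of the Hippo pathway. They were followed through an HMGB1 knockdown in IMR90, human fetal lung fibroblasts. The genes were picked by symbol from the 63677 genes in the count files, and all 10 were found, with CYR61 and CTGF listed under their current names CCN1 and CCN2. The set was chosen knowing that AMOTL2 and CYR61 were much lower in the knockdown. Hence every difference between knockdown and control in these 10 genes is a description and not a test.

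YAP and TAZ are transcriptional coactivators that shuttle between cytoplasm and nucleus and have no DNA-binding domain of their own. In the nucleus they bind TEAD factors and switch on genes of growth, adhesion and the cytoskeleton. LATS kinases phosphorylate YAP and TAZ and hold them in the cytoplasm, angiomotins bind YAP and TAZ and can tether them at junctions and actin, and several target genes, among them AMOTL2 and LATS2, encode inhibitors that feed back on the pathway. In fibroblasts the pathway is known for its response to stiff matrix, cell spreading and actin tension.

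The study had 2 control libraries, from cells given a non-targeting control siRNA, and 2 HMGB1 knockdown libraries, from cells given siRNA against HMGB1, all harvested 72 h after transfection with RNAiMAX. Replicate 1 of each group was grown from I90-10 and replicate 2 from I90-79, single isolates of IMR90 at passage 5. The methods give 2 different siRNAs against HMGB1 for IMR90, and whether they were pooled is not stated. Poly(A) RNA was sequenced, and between 29861687 and 35317010 reads per library were counted on genes.

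HMGB1 itself had 181 and 237 CPM (counts scaled by the reads on the tested genes of the library, with TMM factors) in the control libraries and 16.0 and 18.9 CPM in the knockdown libraries, so the labels hold. All 8 fibroblast markers examined, such as COL1A1 and VIM, were at 64.9 CPM or more in every library. Of 9 markers of epithelial, endothelial, immune and muscle cells, 5 stayed below 1 CPM in all libraries, with CDH5 at 0 counts. The summed level of these 9 was 45.4 and 55.5 CPM in control and 73.4 and 93.7 CPM in knockdown libraries, most of it from the keratin KRT18, and the part of this shift in the results was not tested. Among 15398 genes that passed the filter on low counts, the quasi-likelihood (QL) test of edgeR called 10 up (0.0649%) and 21 down (0.136%). A call required an adjusted p under 0.01 together with a log2-fold change (log2FC) beyond 0.6 in either direction. Adding the isolate as a replicate block raised this to 1028 and 1207. As these are bulk RNA samples, fewer cells making a transcript and less of it per cell cannot be told apart.

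All 10 genes passed the filter on low counts. Relative to control, 8 of the 10 were lower and 2 were higher upon knockdown, in both isolates alike, as were 39.4% and 38.9% of all genes tested. Their median log2FC was −0.36, against −0.0054 over all genes tested. The levels of control and knockdown libraries did not overlap for 9 of the 10, while the same held for 59.9% of all genes tested. CTGF enters this count and that of genes lower in both isolates by a narrow margin. In I90-10 it had 712 CPM in control and 708 CPM in knockdown. The fit called 1 of the 10, AMOTL2, where it called 0.201% of all genes. With the replicate block it called 4, namely AMOTL2, CYR61, YAP1 and WWTR1, where it called 14.5% of all genes. DESeq2, RUVs (a correction for unwanted variation) followed by DESeq2, and edgeR at an adjusted p under 0.05 each called 4 as well, against 10.0%, 10.3% and 8.07% of all genes. Because the genes were chosen on this contrast, nothing is read from these counts.

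**Figure D1:**
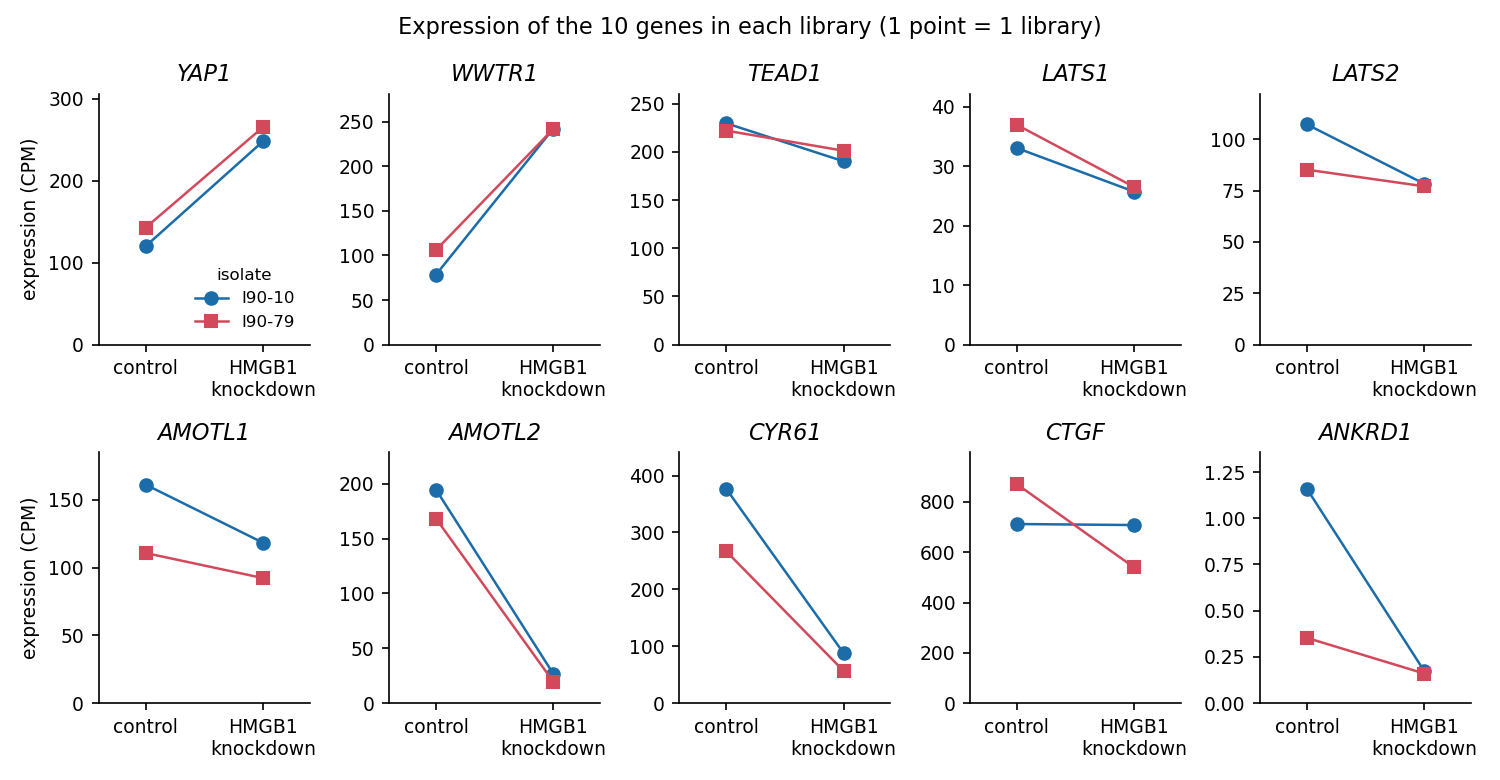
Expression in CPM (y axes, each from 0) of the 10 genes in control and HMGB1 knockdown libraries (x axes), where a point is a library and a line joins the libraries of 1 isolate. YAP1 and WWTR1 were higher in both knockdown libraries, and AMOTL2 dropped from 195 and 168 CPM to 26.9 and 19.7 CPM.

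Both coactivator genes were higher in the knockdown. YAP1 had 120 and 143 CPM in the control and 248 and 265 CPM in the knockdown libraries. The groups did not overlap, and the log2FC was 0.97 (standard error, SE, 0.14), or 1.05 in I90-10 and 0.89 in I90-79. WWTR1 had 78.4 and 106 CPM in the control libraries and 242 CPM in each knockdown library. Its log2FC of 1.39 (SE 0.17) was the larger of the pair, at 1.63 in I90-10 and 1.19 in I90-79. Of all genes tested, 384 had a higher log2FC than WWTR1 and 858 a higher one than YAP1. Per length, as RPKM (CPM per 1000 exonic bases), WWTR1 stood at 0.488 and 0.556 of YAP1 in the control libraries and at 0.730 and 0.682 in the knockdown libraries. The summed RPKM of both was 28.4 and 35.3 in control and 68.1 and 70.8 in knockdown libraries. Thus the coactivator transcripts were more abundant in the same libraries in which AMOTL2 and CYR61, encoding 2 of their targets, were lower than in control.

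TEAD1, which brings the coactivators to DNA, had 230 and 222 CPM in control and 190 and 201 CPM in knockdown libraries. Its log2FC was −0.21 (SE 0.11), the smallest shift among the 10 genes in this fit. The kinase gene LATS1 had 33.1 and 37.0 CPM in control and 25.7 and 26.5 CPM in knockdown libraries, with a log2FC of −0.42 (SE 0.13). LATS2 had 107 and 85.2 CPM in control and 78.3 and 77.1 CPM in knockdown libraries. Its log2FC was −0.31 (SE 0.14), with the isolates at −0.45 and −0.14, so most of the difference lay in I90-10. Both kinase transcripts were therefore somewhat lower, with smaller shifts than those of YAP1 or WWTR1. The per-length ratio of LATS1 to LATS2 was 0.205 and 0.288 in control and 0.218 and 0.228 in knockdown libraries, so it overlapped between groups.

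The angiomotin genes were all lower in the fit, to differing extents. AMOTL2 had 195 and 168 CPM in control and 26.9 and 19.7 CPM in knockdown libraries, the lowest control library being far above the highest knockdown library. The level thus dropped 7.79-fold, at a log2FC of −2.96 (SE 0.20), with −2.85 in I90-10 and −3.10 in I90-79. Only 27 of the genes tested had a lower log2FC. AMOTL1 had 161 and 111 CPM in control and 118 and 92.3 CPM in knockdown libraries, and its groups overlapped, being the only ones among the 10 genes to do so. Its log2FC was −0.37 (SE 0.22), with −0.45 in I90-10 and −0.26 in I90-79. Per length, AMOTL2 exceeded AMOTL1 by 2.03- and 2.55-fold in the control libraries and was at 0.382 and 0.358 of AMOTL1 in the knockdown libraries. Of this pair, AMOTL2 was therefore the more abundant transcript in control and the less abundant one in knockdown libraries. The third angiomotin gene, AMOT, was weakly expressed, at 12.7 and 6.81 CPM in control and 6.30 and 4.16 CPM in knockdown libraries.

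**Figure D2:**
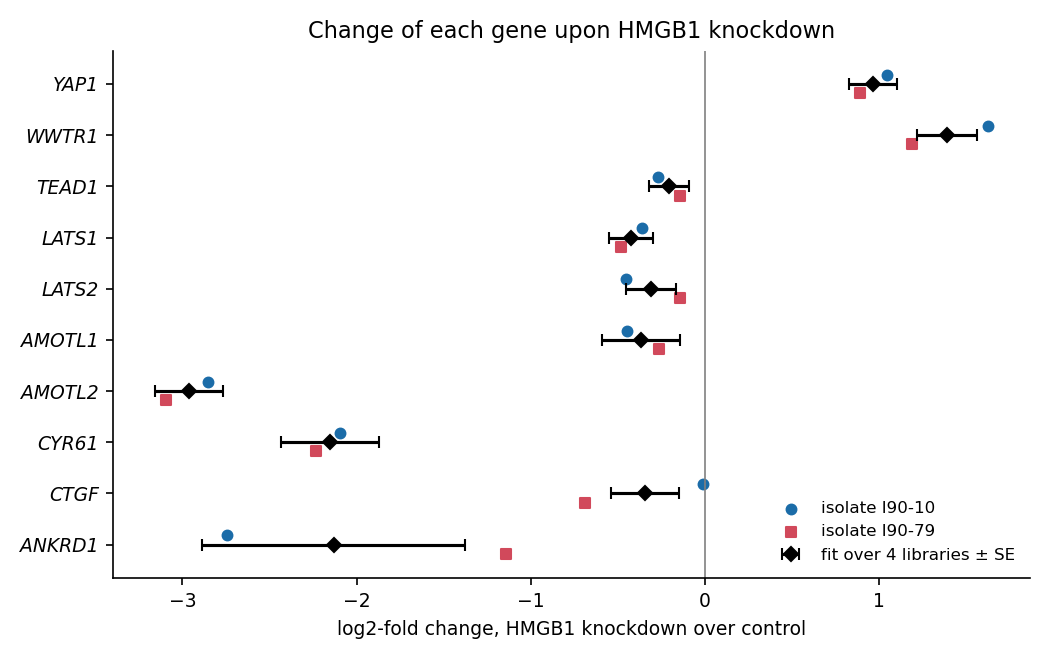
Log2-fold change upon HMGB1 knockdown (x axis) of the 10 genes (y axis), with diamonds for the fit over 4 libraries, bars for its standard error, and circles and squares for the ratio within the isolates I90-10 and I90-79. AMOTL2, CYR61 and ANKRD1 lie below −2 on this scale in the fit and YAP1 and WWTR1 above 0.9, while CTGF is near 0 in one isolate and at −0.69 in the other.

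The classical target genes were all lower in the fit, but not by the same amount. CYR61, a secreted matrix protein of the CCN family, had 376 and 267 CPM in control and 88.0 and 56.6 CPM in knockdown libraries. The level dropped 4.45-fold, at a log2FC of −2.15 (SE 0.28), and the isolates stood at −2.10 and −2.24. CTGF, the connective tissue growth factor of the same family, had 712 and 871 CPM in control and 708 and 540 CPM in knockdown libraries. The groups did not overlap, but their nearest libraries, both of I90-10, lay only a few CPM apart. The log2FC was −0.0081 in I90-10, −0.69 in I90-79 and −0.34 (SE 0.20) in the fit. Whether the isolates differed in this change could not be tested with 1 library for each combination. Per length, CYR61 stood at 0.504 and 0.292 of CTGF in control and at 0.118 and 0.0999 in knockdown libraries. ANKRD1, a cardiac ankyrin repeat protein often used as a YAP reporter gene, was hardly expressed, with 34 and 13 counts in control and 5 counts in each knockdown library. Its log2FC of −2.13 had an SE of 0.76, and went from −2.77 without control replicate 2 to −1.07 without control replicate 1.

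**Figure D3:**
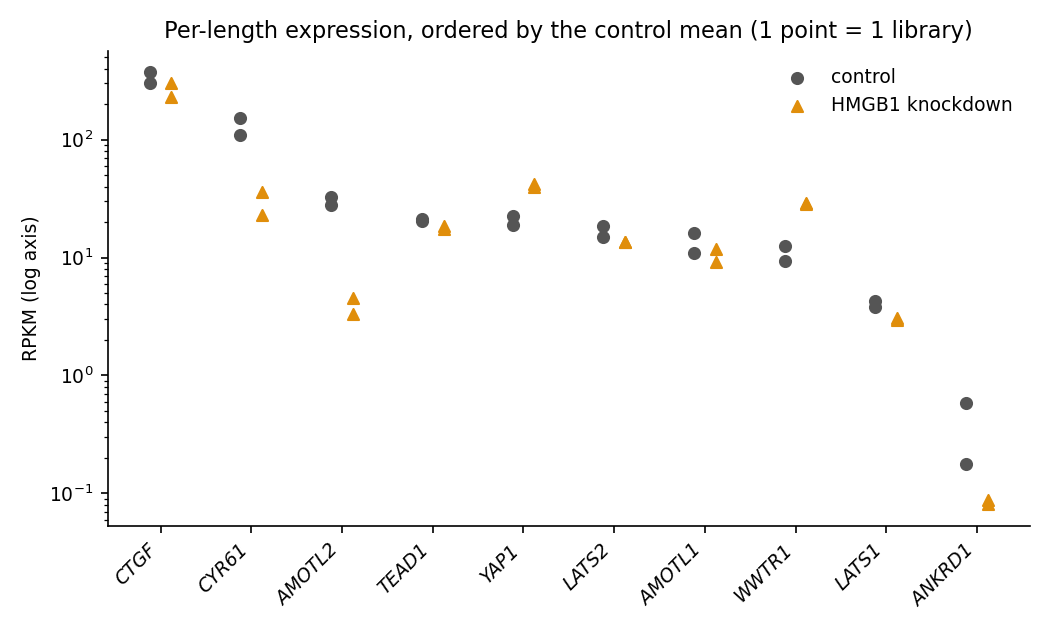
Expression per length in RPKM (y axis, log scale) of the 10 genes (x axis, ordered by the control mean), with 1 point for each control (circle) and knockdown (triangle) library. CTGF is the highest and ANKRD1 the lowest in both groups, and AMOTL2 drops from 30.3 to 3.90 RPKM on average.

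Levels between genes were compared per length. In the control libraries CTGF led with 338 ± 48.0 RPKM (SD, n = 2), followed by CYR61 with 131 ± 31.6 RPKM (SD, n = 2) and AMOTL2 with 30.3 ± 3.13 RPKM (SD, n = 2). TEAD1 and YAP1, at 20.9 ± 0.497 and 20.9 ± 2.55 RPKM (SD, n = 2), did not differ beyond their spread. LATS2 (16.8 ± 2.71 RPKM), AMOTL1 (13.5 ± 3.55 RPKM) and WWTR1 (11.0 ± 2.32 RPKM) followed (SD, n = 2 each), and the libraries of AMOTL1 overlapped those of both its neighbours. LATS1 (4.05 ± 0.319 RPKM) and ANKRD1 (0.382 ± 0.288 RPKM) came last. Among the knockdown libraries CTGF was again first, with 267 ± 50.8 RPKM (SD, n = 2), but YAP1 was next with 40.8 ± 1.94 RPKM (SD, n = 2). CYR61, at 29.5 ± 9.04 RPKM, and WWTR1, at 28.7 ± 0.0361 RPKM (SD, n = 2 each), did not differ beyond their spread. AMOTL2 ranked below TEAD1, LATS2 and AMOTL1, at 3.90 ± 0.856 RPKM (SD, n = 2), next to LATS1 at 3.02 ± 0.0643 RPKM (SD, n = 2).

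The isolate is a measure that the choice of genes did not use. Each isolate was also 1 replicate, so isolate differences cannot be told apart from differences between replicates or their handling. With 1 control and 1 knockdown library per isolate, the p-values do not measure the spread between cultures of an isolate. In a fit with group and isolate, the edgeR QL test called 0 of the 10 genes between I90-79 and I90-10, against 1.67% of all genes tested (0.442% higher and 1.23% lower in I90-79). An unadjusted p below 0.05 was found for 3 of them, against 22.2% of all genes, and DESeq2 with the same terms also called 0. CYR61 was lower in I90-79 by a log2FC of −0.56 (SE 0.09, adjusted p = 0.0149 by edgeR QL), with isolate means of 162 and 232 CPM. AMOTL1 was lower in I90-79 by −0.45 (SE 0.10, adjusted p = 0.0341 by edgeR QL), at 101 and 140 CPM. Both were lower in I90-79 within each group, but neither passed the thresholds. For AMOTL2 the difference was −0.32 (SE 0.10, adjusted p = 0.115 by edgeR QL). YAP1 and WWTR1 leaned the other way, at 0.17 and 0.21 (SE 0.09 and 0.12, adjusted p = 0.336 and 0.349 by edgeR QL).

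Other genes of the pathway were taken from lists by role. These lists were drawn up with earlier results of these data known, so their counts and p-values are a description. Of 59 such genes, 54 were tested, and VGLL1, VGLL2, TP73, WISP2 and WISP3 had too few reads. Without the block, the edgeR QL test called 0 of them in either direction. At an unadjusted p below 0.05, reached by 28.3% of all genes (13.6% higher and 14.7% lower), 8 were higher and 16 lower. With the isolate as a replicate block, edgeR called 5 up and 14 down, where it called 6.68% and 7.84% of all genes. DESeq2 called 4 up and 11 down, against 4.73% and 5.31% of all genes. RUVs followed by DESeq2 called 3 up and 11 down, against 4.96% and 5.39% of all genes. The median log2FC of the 54 was −0.25, against −0.0054 over all genes tested.

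Upstream of YAP and TAZ, 27 genes of the kinase cassette, its scaffolds and the cadherins that control it had a median log2FC of −0.18. With the block 2 rose and 5 fell, where 6.68% and 7.84% of all genes did. MOB1A, a coactivator of the LATS kinases, had 138 and 122 CPM in control and 41.8 and 48.6 CPM in knockdown libraries, a log2FC of −1.52 (SE 0.14, adjusted p = 0.0107 by edgeR QL, and 1.05e-04 with the block). The scaffold gene WWC3 had 53.7 and 46.0 CPM in control and 23.0 and 22.8 CPM in knockdown libraries, at −1.12 (SE 0.13, adjusted p = 0.0161 by edgeR QL, and 2.68e-04 with the block). FAT4, a giant cadherin upstream of the kinases, was at −1.35 (SE 0.20, adjusted p = 0.0263 by edgeR QL, and 7.57e-04 with the block). STK4, a kinase that activates LATS, was at 0.80 and its partner SAV1 at 0.62 (adjusted p = 6.64e-04 and 0.0025 by edgeR QL with the block, and 0.0362 and 0.0487 without it). These last 2 were named after their values were seen, as the genes of the list that rose with the block. Hence activators of LATS stood on both sides.

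Of 12 nuclear partners, cofactors and AMOT, 9 were tested, with a median log2FC of −0.28. With the block 1 rose and 2 fell, against the same 6.68% and 7.84% of all genes. RUNX2, a transcription factor that can bind YAP, had 7.49 and 6.21 CPM in control and 16.8 and 17.5 CPM in knockdown libraries, at a log2FC of 1.33 (SE 0.18, adjusted p = 0.02 by edgeR QL, and 5.39e-04 with the block). ARID1A, a SWI/SNF chromatin remodelling subunit, was at −0.73 (SE 0.12, adjusted p = 0.0292 by edgeR QL, and 0.00134 with the block). AMOT was at −0.89 (SE 0.38, adjusted p = 0.197 by edgeR QL, and 0.00697 with the block). Its level was also lower in I90-79, by −0.76 with SE 0.17 (adjusted p = 0.0406 by edgeR QL). The other TEAD genes, TEAD2, TEAD3 and TEAD4, had log2FC values of −0.18, −0.28 and 0.09, and none was called in either fit.

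Of 16 other genes known as YAP/TAZ targets, all were tested. Their median log2FC was −0.31, and 5 were higher and 11 lower. With the block 1 rose and 6 fell, again beside 6.68% and 7.84% of all genes. NUAK2, an AMPK-related kinase, had 46.1 and 45.8 CPM in control and 18.2 and 16.9 CPM in knockdown libraries, a log2FC of −1.39 (SE 0.12, adjusted p = 0.0104 by edgeR QL, and 1.01e-04 with the block). CRIM1, a membrane protein that binds BMPs, was at −1.08 (SE 0.19, adjusted p = 0.0363 by edgeR QL, and 0.00169 with the block). GADD45A, a stress response gene, was at −1.01 (SE 0.18, adjusted p = 0.0355 by edgeR QL, and 0.00177 with the block). The 1 target called up with the block was NT5E, and it was named after its values were seen. Its 367 and 667 CPM in control and 660 and 931 CPM in knockdown libraries overlapped between the groups, and within each isolate the knockdown was higher. Its log2FC was 0.62 (SE 0.33, adjusted p = 0.279 by edgeR QL, and 0.00356 with the block). AXL, a receptor tyrosine kinase listed among the targets, was at 0.25 (SE 0.21) and was not called in either fit. The groups did not overlap for 2 higher targets, F3 and DOCK5, and for 7 lower ones, against 59.9% of all genes in either direction. F3 was at 0.58 and DOCK5 at 0.51 (SE 0.19 each, adjusted p = 0.00348 and 0.008 by edgeR QL with the block). Both stayed under the log2FC threshold of 0.6 and were named after their values were seen.

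The 4 other CCN genes were followed because CYR61 and CTGF belong to this family, and 2 of them were tested. WISP1 had 41.4 and 31.3 CPM in control and 21.3 and 14.6 CPM in knockdown libraries, at −1.02 (SE 0.24, adjusted p = 0.063 by edgeR QL, and 4.01e-04 with the block). NOV was at 1.31 (SE 0.32, adjusted p = 0.0682 by edgeR QL, and 0.00478 with the block), with 5.65 and 10.5 CPM in control and 22.1 and 18.3 CPM in knockdown libraries. Within the CCN family, then, WISP1 moved the way of CYR61 and NOV the opposite way. Both were called with the block, by DESeq2 and by RUVs followed by DESeq2, and neither by edgeR without the block.

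**Figure D4:**
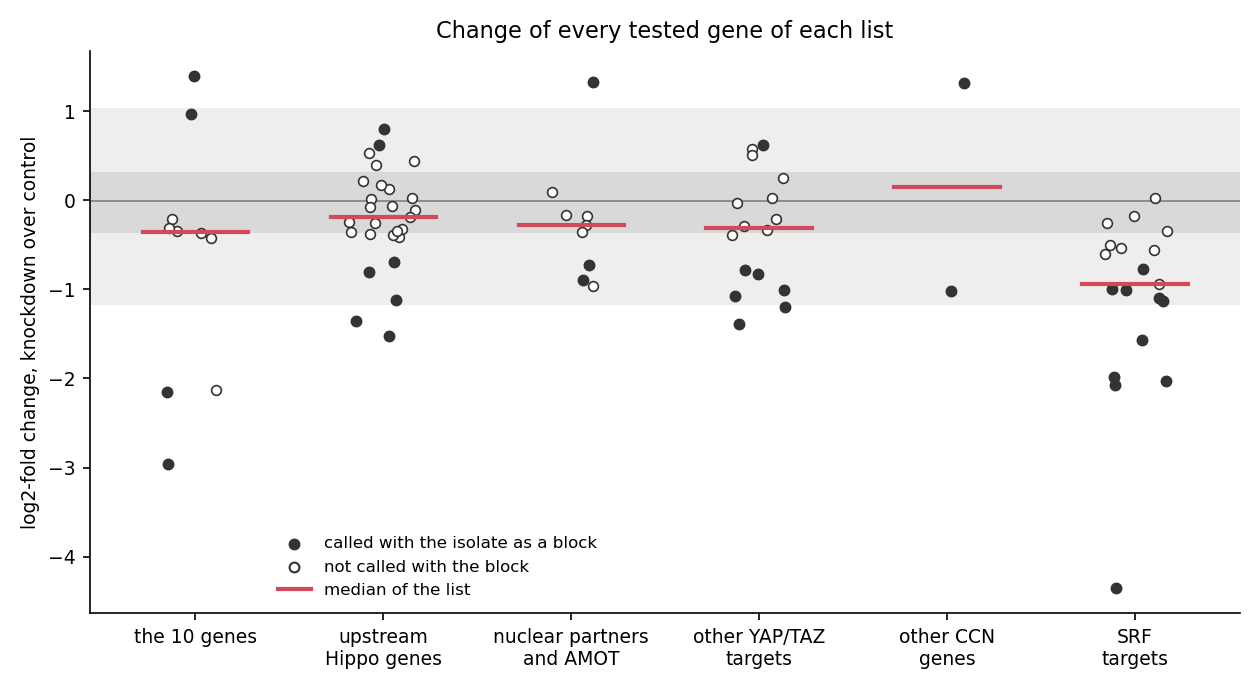
Log2-fold change upon HMGB1 knockdown in the fit without a block (y axis) of every tested gene of each list (x axis). Filled points were called with the isolate as a block, red lines are medians, and the grey bands span the 25th to 75th and the 5th to 95th percentiles of all genes tested. The median is −0.31 for the other YAP/TAZ targets and −0.94 for the SRF targets.

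SRF, the serum response factor, drives contractile genes together with actin-sensing MRTF cofactors and is known to share cues and some targets with YAP and TAZ. Of 19 SRF target genes, all were tested, 1 was higher and 18 were lower, and 17 were lower in both isolates, as were 39.4% of all genes. Their median log2FC was −0.94, against −0.0054 over all genes tested. Without the block the edgeR QL test called 0 of them, with 11 lower and 0 higher at an unadjusted p below 0.05, where 14.7% and 13.6% of all genes were. With the block 10 fell and 0 rose, against 7.84% and 6.68% of all genes. DESeq2 and RUVs followed by DESeq2 called 6 and 7 down, against 5.31% and 5.39% of all genes. SRF itself was at −1.13 (SE 0.14, adjusted p = 0.0175 by edgeR QL, and 1.84e-04 with the block). The calponin gene CNN2 was at −2.03 (SE 0.32, adjusted p = 0.029 by edgeR QL, and 2.69e-05 with the block). LMOD1, a leiomodin of actin filaments, had 40.9 and 8.87 CPM in control and 2.01 and 0.448 CPM in knockdown libraries, at −4.35 (SE 0.99, adjusted p = 0.0591 by edgeR QL, and 1.60e-05 with the block). The isolates, each also 1 replicate, differed for many of these genes. Of the 19, 7 were called lower in I90-79 and 0 higher, where 1.23% of all genes were called lower. The SRF list, too, was drawn up with earlier results of these data known, so its counts and p-values are a description. Whether it moved more than the YAP/TAZ targets was not tested.

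Sequence features were set beside these values. A word of 6 bases, GCAGTT, was searched for in the 3′ UTR of the canonical transcript, since its presence went with lower levels across all genes in an earlier look at these data. Of 12337 tested genes with a 3′ UTR of at least 100 bases, 36.2% held it. AMOTL2 holds 3 copies in 2358 bases, on the minus strand of GRCh37, and the sites are shown because AMOTL2 had the lowest log2FC of the 10 genes. The word is in capitals and its neighbours in lower case, 5′ to 3′ along the transcript.
AMOTL2 at chr3:134075900-134075923: agacagtgcGCAGTTtgtatataa
AMOTL2 at chr3:134075434-134075457: aggagcaaaGCAGTTgaaaactag
AMOTL2 at chr3:134075192-134075215: tgggttttaGCAGTTttgtcttta
TEAD1 also holds 3 copies, in 7515 bases, and had a log2FC of −0.21.

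Over all genes with such a 3′ UTR, the median log2FC was 0.07 with 0 copies, −0.10 with 1, −0.22 with 2 and −0.32 with 3 or more. As the word was chosen on these same data, this order is a description and not a test. The 3′ UTRs lengthened in the same order, from a median of 886 bases with 0 copies to 5443.5 with 3 or more. Among the latter 720 genes, 5.84% of the total, 69.7% had a log2FC below 0. Per 1000 bases, AMOTL2 holds 1.27 copies, more than any other of the 10 genes, followed by LATS1 with 0.559. Of the other pathway genes, TEAD4, SMARCA4 and GADD45A hold more, at 5.05, 2.19 and 1.79, in 3′ UTRs of 198, 457 and 560 bases. Their log2FC values were 0.09, −0.17 and −1.01. LATS1 and AMOTL1 hold 2 copies each, and YAP1 and WWTR1, both higher in the knockdown, hold 1 each. CYR61, CTGF, ANKRD1 and LATS2 hold 0 and had log2FC values of −2.15, −0.34, −2.13 and −0.31. The sequences of the siRNAs are not given in the sources used here. The part of the word in the level of AMOTL2 or of the other genes was not tested. Of the list genes named above, WWC3 and CRIM1 hold 3 copies. MOB1A, SRF and WISP1 hold 2, and so does STK4, which was higher in the knockdown. ARID1A, SMARCA4, AMOT, TEAD4, GADD45A, DOCK5, CNN2 and LMOD1 hold 1. FAT4, NUAK2, TEAD2, TEAD3, SAV1, RUNX2, NT5E, AXL, F3 and NOV hold 0.

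**Figure D5:**
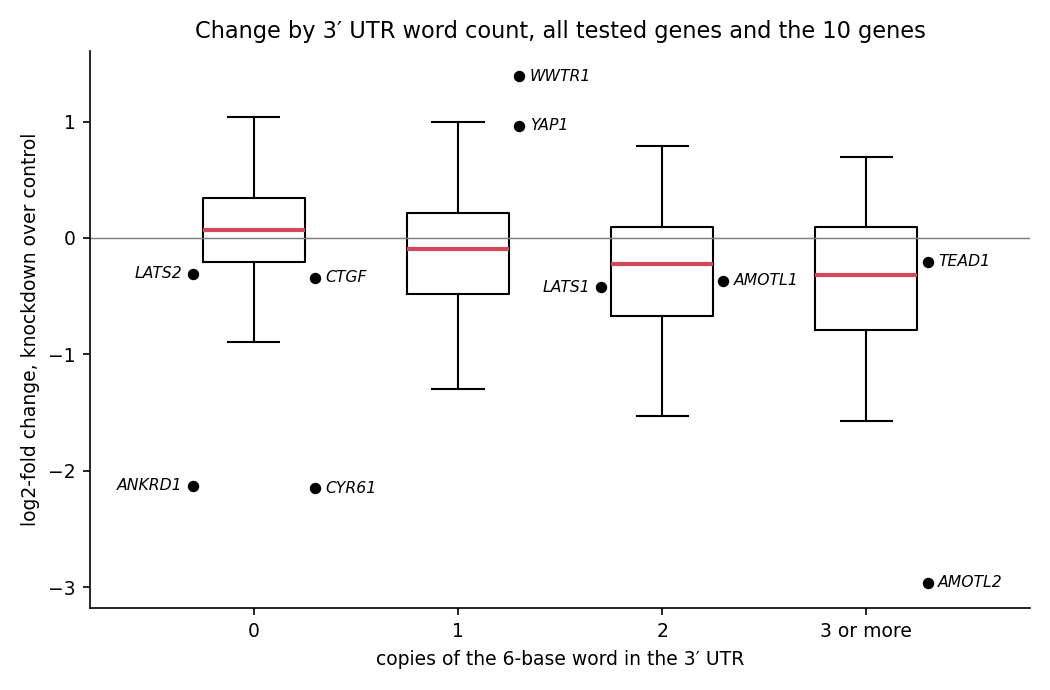
Log2-fold change upon HMGB1 knockdown (y axis) by the number of copies of GCAGTT in the 3′ UTR (x axis) for 12337 genes, with boxes for quartiles, red medians and whiskers from the 5th to the 95th percentile, and the 10 genes as labelled points beside their box. AMOTL2 lies far below its box, CYR61 and ANKRD1 below a box with 0 copies, and YAP1 and WWTR1 above theirs.

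The core of the sites that TEAD factors are known to bind, GGAATG or its reverse complement CATTCC, was searched for on both strands of promoter windows from RefSeq (GRCh38.p14), from 250 bases before to 50 after a start. Of 35116 windows, 14.0% held it and 0.128% held 3 or more copies. A window was found for 8 of the 10 genes, 11 windows in all, and none for CYR61 and TEAD1. Copies were found in 5 genes. The sites of the target and angiomotin genes are shown, since their response differed, with the motif in capitals, 5′ to 3′ along the gene's strand, which is minus for all 3.
CTGF at chr6:131951456-131951485: aggtggggaGGAATGcgaGGAATGtccctg
CTGF at chr6:131951527-131951550: tcagacggaGGAATGctgagtgtc
ANKRD1 at chr10:90921201-90921224: actgagtctGGAATGaaaattcac
ANKRD1 at chr10:90921293-90921316: accaccaaaGGAATGgccctctca
AMOTL2 at chr3:134374502-134374525: aaactctcaCATTCCtggcatagc
CTGF thus holds 3 copies, the most of the 8 genes searched, and had a log2FC of −0.34. ANKRD1 holds 2 and was at −2.13, with few reads. AMOTL2 holds 1, in one of its 2 windows, and was at −2.96. Whether the copies bear on the change was not tested. YAP1 and LATS2 hold 1 copy each. WWTR1, LATS1 and AMOTL1 hold 0 in these windows.

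Overlap and shared sequence with other genes were looked up, and their part in these values was not tested. By the exons in the count files (hg19), AMOTL2 lies on chr3:134074716-134094321 on the minus strand, and 3.13% of its exonic bases overlap the pseudogene RPL39P5, which had at most 0.0271 CPM. CYR61 lies on chr1:86046444-86049645 on the plus strand and overlaps no other gene. YAP1 lies on chr11:101981192-102104154 on the plus strand, WWTR1 on chr3:149235022-149454501 on the minus strand and CTGF on chr6:132269316-132272513 on the minus strand. Genes on the opposite strand overlap 8.34% of the exonic bases of CTGF, 4.94% of AMOTL1, 9.98% of YAP1 and 9.45% of WWTR1. These partners stood at 0.443 CPM or less in every library, although the strand setting of the counting is not given in the sources used here. Reads on bases that both genes share may be counted for neither, so a low partner count does not show how many fell there. Pieces of 50 bases shared with transcripts of other genes made up 2.06% for AMOTL2, 0.45% for YAP1, 0.095% for WWTR1 and 0.047% for LATS1, and 0 for the others.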

How the data were processed

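RNA-seq was available for 2 control and 2 HMGB1 knockdown IMR90 libraries. From poly(A) RNA the authors prepared TruSeq libraries for paired-end sequencing on a HiSeq4000. They aligned reads with STAR on hg19 and assigned uniquely mapped ones to genes by featureCounts. The authors deposited raw counts, 1 file per library, without normalization. Versions and the strand setting are not given in the sources used here. DESeq2 is named in the submitters' processing notes. Totals ran from 29861687 to 35317010 counts. At this depth ANKRD1 had 5 to 34 reads in a library, the fewest of the 10 genes.

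Symbols came from the reference table of gene names and, for the CCN genes, from RefSeq synonyms. PECAM1 was not used. The counts were tested with edgeR 4.0.16 in R 4.3.3 across the 4 libraries (limma 3.58.1), using filterByExpr, TMM factors, glmQLFit and glmQLFTest, and Benjamini-Hochberg adjustment over 15398 genes. Calls needed an adjusted p under 0.01 together with a log2FC beyond 0.6 in either direction. The standard error is the log2-fold change divided by the root of the F statistic. CPM and RPKM use the counts on tested genes, the TMM factors and the gene lengths in the files. The scripts were tested on simulated data.

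Each isolate gave 1 control and 1 knockdown library, so libraries of the same replicate number are pairs. The difference between replicates 1 and 2 correlated at 0.464 between the groups across 15398 genes. The main fit has no term for the isolate, and the blocked fit (replicate block) is given where it changes a call. With 2 libraries against 2 and the pairing ignored, an exact permutation p cannot go below 0.333. Swapping labels only within an isolate leaves fewer arrangements and a higher floor. Hence p-values rest on a model fitted across all genes.

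The 10 genes, the lists and the word GCAGTT were chosen with earlier results of these data known. The genes named are the 10, HMGB1, the called genes of each list or its 3 with the smallest p, and the 3 genes nearest in profile to AMOTL2 and to CYR61. Genes named otherwise were picked after their values were seen. These are KRT18, STK4, SAV1, NT5E, AXL, F3, DOCK5, SMARCA4, the other TEAD genes and the marker genes. The 3′ UTRs are those of canonical transcripts of the GENCODE annotation lifted to GRCh37, and each printed 3′ UTR site was checked against the GRCh37 sequence. The promoter sites were not checked in this way. DESeq2 (version 1.42.0), RUVs with 1 factor followed by DESeq2, edgeR with size factors from DESeq2 or with upper-quartile scaling, no filter, an adjusted p below 0.05, no fold threshold and leaving out each library were the alternatives. RUVs was coded anew after its description, on upper-quartile scaled counts.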

Additional observations from a re-analysis of the deposited data

How the results depend on the processing

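The number of called genes changed with several of the alternatives. Against 10 genes up and 21 down over all genes, 1 of the 10 genes, 0 up and 0 down among the other pathway genes and 0 SRF targets, the replicate block gave 1028, 1207, 4, 5, 14 and 10. DESeq2 gave 728, 818, 4, 4, 11 and 6, RUVs followed by DESeq2 gave 763, 830, 4, 3, 11 and 7, no filter on low counts gave 1118, 1275, 4, 5, 15 and 11, and an adjusted p below 0.05 gave 575, 668, 4, 3, 9 and 2. On leaving out 1 library at a time, the same counts ranged from 0 to 305, 0 to 337, 0 to 3, 0 to 1, 0 to 7 and 0 to 6. A library left alone in its group was assumed to vary like the others. The counts were 0 without knockdown replicate 1 and without knockdown replicate 2, so the call of AMOTL2 rested on having both, and they were highest without control replicate 2. In that fit, 305 genes were called up and 337 down, and without control replicate 1 it was 118 and 181. The cause was not tested. Size factors from DESeq2, upper-quartile factors and dropping the fold threshold kept every one of these counts within 1.5 times the main one, and the count of 0 between isolates held under all 4 alternatives run for it.

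The log2-fold changes of the 10 genes kept their sign under all 10 alternatives that refit them. AMOTL2 ranged from −3.21 to −2.75, CYR61 from −2.51 to −1.86, YAP1 from 0.84 to 1.10 and WWTR1 from 1.19 to 1.63. AMOTL1 ranged from −0.61 to −0.07 and CTGF from −0.55 to −0.16. ANKRD1, with 5 to 34 reads in a library, ranged from −2.77 without control replicate 2 to −1.07 without control replicate 1.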

Other observations

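By the root-mean-square difference of centred log2 CPM over the 4 libraries (0.01 CPM added), the genes nearest in profile to AMOTL2 were CDK2AP1, KIF9-AS1 and FGF1, at 0.108, 0.172 and 0.205 log2 units. CDK2AP1, a binder of the kinase CDK2, had 154 and 129 CPM in control and 24.9 and 17.0 CPM in knockdown libraries. FGF1, a fibroblast growth factor, had 5.69 and 3.45 CPM in control and 0.693 and 0.416 CPM in knockdown libraries. KIF9-AS1 is an antisense gene, and its reads cannot be told from those of its partner where the counting did not use strand. Nearest to CYR61 were PLEKHA2, LASTR and KLHDC7B, at 0.076, 0.111 and 0.113 log2 units. PLEKHA2, which encodes a pleckstrin homology domain protein, had 45.1 and 28.1 CPM in control and 9.45 and 6.53 CPM in knockdown libraries. LASTR and KLHDC7B stayed below 1 CPM in every library. With 4 libraries, such likeness reflects little more than a shared size of change and of isolate difference.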
